A study of Mus musculus with 2 samples.

Results

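The genes described here are 47 developmental homeobox and paired box genes that lie outside the Hox clusters. They were taken by name from a list and located in the GENCODE M21 annotation of the mouse genome build mm10, where all 47 symbols matched a protein-coding gene among 21938, and all 47 lie on the autosomes. The measurement was DNase-seq, in which the nuclease DNase I cuts DNA where nucleosomes are missing, so that sites of open chromatin appear as peaks of cuts. There was 1 group, whole heart tissue of B6NCrl mice on postnatal day 0, with 2 libraries labelled as biological replicates 1 and 2. Both replicates carry 1 donor label and separate biosample labels, the sex was not collected, and no treated or second tissue was available, so no condition was compared and no test was made. Every statement below is a description of these libraries, and an SD with n = 2 measures only the spread between them. In whole tissue, fewer cells with an open site and less cutting per cell cannot be told apart.

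Homeobox genes encode transcription factors that bind DNA through a homeodomain, and paired box genes encode factors with a paired domain, often beside a homeodomain. The genes described here pattern the embryo outside the main heart lineages: eyes, brain regions, spinal cord, kidney, pancreas, skeleton and face. In cell types that do not use them, the CpG islands of such genes are a textbook location of Polycomb group proteins, which keep genes silent. Cardiac cell types also use other homeobox factors, such as Nkx2-5, which the list does not hold.

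The peaks were 150 bp long, and their value is the signal column that the authors deposited, a whole number with no stated unit and no scaling between libraries. A gene was given a promoter peak where a peak centre lay within 500 bp of any of its annotated transcription start sites (TSSs). A promoter was called CpG-rich where a 1 kb window at a TSS had a GC content of at least 50% and a ratio of observed to expected CpG of at least 0.6. The lists held 164657 peaks in replicate 1 and 144708 in replicate 2 on the autosomes and sex chromosomes, with median values of 36 and 35. The number of reads behind each value is unknown. The labelled tissue was checked against marker genes: all 12 cardiomyocyte markers, all 8 endothelial markers, 7 of 8 fibroblast markers, 4 of 6 smooth muscle and pericyte markers and 3 of 6 epicardial markers had a promoter peak in both libraries. Among the remaining marker lists the counts were 3 of 8 for brain neurons, 1 of 6 for Schwann cells and neural crest and 1 of 6 for thymus and lymphoid cells. They were 1 of 4 for kidney, 0 of 4 for lung epithelium and 0 of 4 for hepatocytes. The skeletal muscle list had 3 of 6, namely Ckm, Acta1 and Myog. The cardiac factor Nkx2-5 had a highest promoter value of 98 in replicate 1 and 104 in replicate 2. Of the other heart reference genes, Gata4 had 109 and 92 and Tnnt2 had 115 and 102 in replicates 1 and 2. The cardiac factor Tbx5 had 66 in replicate 1 and no promoter peak in replicate 2. A gene without a peak in both libraries may thus still be one used in heart.

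A first set of sequences shows promoter DNA inside a peak of replicate 1 that a peak of replicate 2 overlaps, from the highest members for which at least 75 bp of the peak lie outside untranslated regions. All are from mm10 and are written 5′ to 3′ on the gene's own strand. Capitals mark the letters CCAAT on either strand. Six4 is shown at chr12:73113457-73113565 on the minus strand, Msx1 at chr5:37824584-37824665 on the minus strand, Nkx6-1 at chr5:101665336-101665485 on the minus strand and Lhx3 at chr2:26208290-26208405 on the minus strand. The Six4, Msx1 and Nkx6-1 peaks are centred in the intergenic stretch before the gene, and the Lhx3 peak is centred in a noncoding exon of its neighbour Gm27196.
Six4: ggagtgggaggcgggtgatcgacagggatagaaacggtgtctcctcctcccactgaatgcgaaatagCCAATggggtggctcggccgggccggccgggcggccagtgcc
Msx1: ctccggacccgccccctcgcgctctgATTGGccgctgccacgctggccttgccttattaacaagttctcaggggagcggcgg
Nkx6-1: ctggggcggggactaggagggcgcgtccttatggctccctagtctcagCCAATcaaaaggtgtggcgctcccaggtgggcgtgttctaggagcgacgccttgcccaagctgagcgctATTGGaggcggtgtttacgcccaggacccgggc
Lhx3: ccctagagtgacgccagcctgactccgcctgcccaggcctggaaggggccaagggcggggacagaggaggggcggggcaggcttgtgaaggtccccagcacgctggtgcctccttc

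A second set holds the 150 bp just before the 5′ end of 3 members that had no promoter peak in either library, chosen as those with the most CpG dinucleotides in that window. Capitals mark CpG. Barx1 is at chr13:48662848-48662997 on the plus strand with 25 CpGs, Dlx2 at chr2:71546755-71546904 on the minus strand with 17, and En2 at chr5:28165544-28165693 on the plus strand with 16. All of these windows are intergenic. Dlx2 and En2 also hold the letters CCAAT, on the opposite strand, which the capitals here do not mark. They are the top of 16 CpG-rich members without a promoter peak, among which Gsx2 followed with 13, En1 and Pax3 had 9 each and Pax5 had 0. The highest promoter peak of a member with one held a median of 12 CpGs in both libraries, and that of all protein-coding genes held 12 as well. Those are called peaks rather than windows before a 5′ end, so the 3 counts do not show that members without a peak hold more CpGs.
Barx1: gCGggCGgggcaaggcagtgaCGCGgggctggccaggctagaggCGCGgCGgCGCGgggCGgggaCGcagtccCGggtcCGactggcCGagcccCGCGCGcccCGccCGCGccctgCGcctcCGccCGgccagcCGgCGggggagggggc
Dlx2: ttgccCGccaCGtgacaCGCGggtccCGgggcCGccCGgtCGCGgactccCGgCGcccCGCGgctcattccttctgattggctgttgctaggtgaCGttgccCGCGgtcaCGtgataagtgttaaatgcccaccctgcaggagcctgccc
En2: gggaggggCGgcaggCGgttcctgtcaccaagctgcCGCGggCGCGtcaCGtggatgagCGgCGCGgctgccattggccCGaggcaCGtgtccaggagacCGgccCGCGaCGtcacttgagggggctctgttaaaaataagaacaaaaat

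A promoter peak was present in 26 of 47 members in replicate 1 and in 23 in replicate 2. It was present in both libraries for 20 members, or 42.6%, against 63.7% of all protein-coding genes. In 9 members it was present in 1 library only, and in 18 it was present in neither. Of the members' promoters, 43 of 47 were CpG-rich by the rule above, with a median CpG ratio of 0.75 against 0.63 over all protein-coding genes. Among CpG-rich promoters, 18 of 43 members, or 41.9%, had a peak in both libraries, against 93.4% of all CpG-rich protein-coding genes. These 25 members without one stand among 744 such CpG-rich genes in the whole annotation. Hotspots, the wider regions of enriched cutting in the authors' second file, gave a like count, with 22 of 47 members, or 46.8%, against 64.5% of all protein-coding genes.

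Other homeobox lists were counted in the same way. Hox genes, which pattern the body axis, had a promoter peak in both libraries in 11 of 39 cases. The TALE homeobox list, with the Irx, Meis and Pbx factors, had 13 of 15, a list of homeobox genes with known cardiac use had 6 of 7, and a list of broadly used homeobox genes had 11 of 11. The members' share thus lay between that of the Hox list and those of the other homeobox lists.

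**Figure D1:**
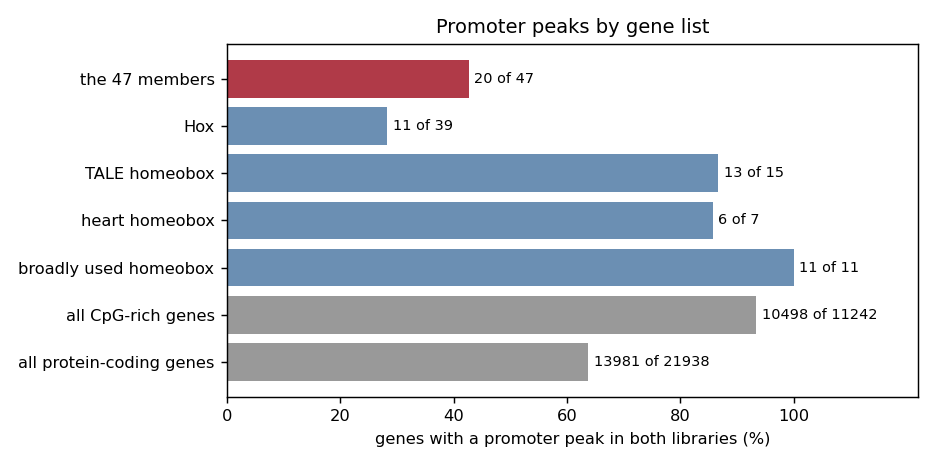
Share of genes with a promoter peak in both libraries (%), with counts beside the bars. The 47 members reach 42.6%, above Hox and below the other lists, among them all CpG-rich protein-coding genes at 93.4% and all protein-coding genes at 63.7%.

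Where a member had a promoter peak in both libraries, the peak was also low. The median of the highest value was 57.5 in replicate 1 and 52.5 in replicate 2 over the 20 members, against 89.0 and 85.0 over all protein-coding genes with one in both. As the mean of both libraries the members' median was 54.2, with a range of 30 to 85.5, against a median of 87.0 over all protein-coding genes and 92.5 over the CpG-rich ones. The median of the members' percentiles among all such genes, averaged over the libraries, was 21.4. The highest member by mean value, Six5, had 85.5, just below the median of 87.0 over all genes, while the mean of its percentiles was 53.9. Its values in the 2 libraries come from different peaks, as described below. For orientation, the median was 94.0 in the TALE list, 91.0 in the broadly used list, 75 in the cardiac homeobox list and 43.0 in the Hox list. Markers of heart cell types other than cardiomyocytes had medians near that of the members, with 54.8 for endothelial, 49.0 for fibroblast and 56.0 for smooth muscle and pericyte markers, while the cardiomyocyte markers had 99.8.

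**Figure D2:**
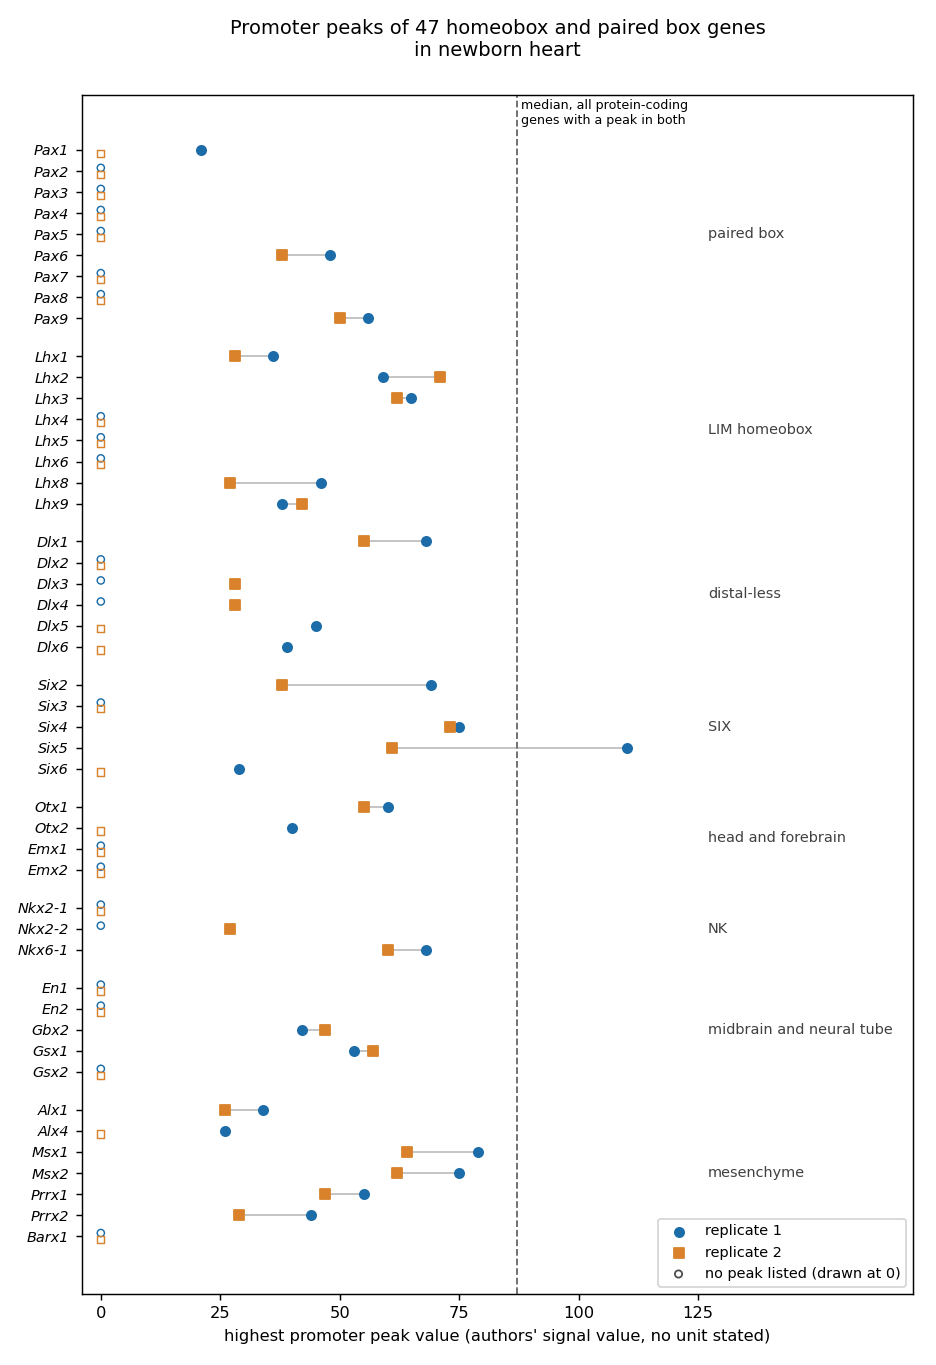
Highest promoter peak value of each of the 47 members in replicate 1 (blue circles) and replicate 2 (orange squares), grouped by family or role; open symbols at 0 mark a library with no promoter peak listed. The dashed line is the median of 87.0 over all protein-coding genes, and of all member values only that of Six5 in replicate 1, at 110, lies right of it.

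The mouse relatives of the fly gene sine oculis held the highest values among the members. Six5 lies just downstream of Dmpk, the gene of myotonic dystrophy type 1, and had a highest promoter value of 110 in replicate 1 and 61 in replicate 2 (mean 85.5 ± 34.6 SD, n = 2). Those values come from different places, since the peak of 110 was centred 443 bp before the 5′ end at chr7:19094076-19094225. Replicate 2 listed a peak of 111 at chr7:19093896-19094045, centred 623 bp before the 5′ end and so outside the 500 bp window. Within the window, replicate 2 had a peak of 61 at 77 bp and one of 50 at 417 bp after the 5′ end. Both libraries therefore show a peak of similar value close to the start of Six5, and the window edge separates them. The promoter of Dmpk itself had 92 in replicate 1 and 73 in replicate 2.

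Six4 was the most even of the high members, with 75 in replicate 1 and 73 in replicate 2 (mean 74.0 ± 1.41 SD, n = 2). The same 150 bp were called in both libraries, centred 35 bp before the 5′ end, and they include the stretch printed above. Six4 acts in muscle precursors and sensory organs. Six2, which keeps nephron progenitors in the kidney undifferentiated, had 69 in replicate 1 and 38 in replicate 2 (mean 53.5 ± 21.9 SD, n = 2), at overlapping peaks. Six6, an eye and pituitary gene, had 29 in replicate 1 only, at a TSS close to that of 4930447C04Rik. Six3, a forebrain and eye gene, had no promoter peak in either library.

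The mesenchyme group, with factors of face, limb and skeletal mesenchyme, had a promoter peak in both libraries in 5 of 7 genes. That is 71.4%, near the 63.7% of all protein-coding genes. Among CpG-rich genes it was 66.7% for the group, against 93.4% for all. Msx1, which acts in craniofacial mesenchyme and teeth, had 79 in replicate 1 and 64 in replicate 2 (mean 71.5 ± 10.6 SD, n = 2), at the same 150 bp centred 8 bp before the 5′ end. Its relative Msx2 had 75 and 62 in replicates 1 and 2 (mean 68.5 ± 9.19 SD, n = 2), again at identical coordinates, centred 243 bp into the gene in its 5′ exon. Both genes thus had 1 promoter position shared by the libraries. Prrx1, a marker and regulator of limb and connective tissue mesenchyme, had 55 in replicate 1 and 47 in replicate 2 (mean 51.0 ± 5.66 SD, n = 2), although its promoter is not CpG-rich. Prrx2 had 44 in replicate 1, at an internal TSS with no overlapping peak in replicate 2, and 29 in replicate 2 near the 5′ end, where replicate 1 had 38. Alx1, a gene of facial mesenchyme, had 34 in replicate 1, where replicate 2 had 25, and 26 in replicate 2 at other places. Alx4, also of face and limb, had 26 in replicate 1 only. Barx1, which acts in stomach and tooth mesenchyme, had none.

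The LIM homeobox genes, whose products carry LIM domains that bind partner proteins, had 5 of 8 in both libraries. That is 62.5%, near the 63.7% of all protein-coding genes. Among CpG-rich genes it was 57.1% for the LIM group, against 93.4% for all. Lhx2, a gene of eye, forebrain and hair follicle stem cells, had 59 in replicate 1 and 71 in replicate 2 (mean 65.0 ± 8.49 SD, n = 2), but at an internal TSS 11770 bp after the 5′ end. Lhx3, a pituitary and motor neuron gene, had 65 and 62 in replicates 1 and 2 (mean 63.5 ± 2.12 SD, n = 2), within 42 bp of its 5′ end. Lhx9, a gene of the embryonic gonad, had 38 in replicate 1 at an internal TSS, where replicate 2 had 35, and 42 in replicate 2 near the 5′ end, where replicate 1 had 29. Lhx8, a gene of forebrain cholinergic neurons, had 46 in replicate 1, where replicate 2 had 26, and 27 in replicate 2 at another TSS. Lhx1, which acts in the embryonic head and kidney, had 36 and 28 in replicates 1 and 2, at an internal TSS. Lhx4, Lhx5 and Lhx6 had no promoter peak in either library.

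The 6 Dlx genes, the mouse counterparts of fly Distal-less, lie as linked pairs and act in pharyngeal arches, limbs and forebrain interneurons. Dlx1 was the only one with a promoter peak in both libraries, with 68 in replicate 1 and 55 in replicate 2 (mean 61.5 ± 9.19 SD, n = 2). That peak was centred 1618 bp after the 5′ end, in an untranslated exon of Dlx1 that also lies in an intron of its antisense gene Dlx1as. Dlx5 had 45 and Dlx6 had 39 in replicate 1 only, whereas Dlx3 and Dlx4 had 28 each in replicate 2 only. So the pair Dlx5 and Dlx6 was listed by replicate 1 and the pair Dlx3 and Dlx4 by replicate 2. Dlx2 had none.

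The paired box genes had the fewest relative to their number after the Dlx genes, 2 of 9. Pax9, a gene of pharyngeal pouches, teeth and vertebrae, had 56 in replicate 1 and 50 in replicate 2 (mean 53.0 ± 4.24 SD, n = 2), at identical coordinates 3824 bp after the 5′ end. Pax6, the eye and pancreas regulator, had 48 and 38 in replicates 1 and 2 at different places, and it has 24 annotated TSSs at which a peak could count. Both places had a peak in both libraries: the one highest in replicate 1 had 37 in replicate 2, and the one highest in replicate 2 had 35 in replicate 1. Pax1, the relative of Pax9 in vertebral precursors, had 21 in replicate 1 only. The kidney genes Pax2 and Pax8, the neural crest and muscle precursor genes Pax3 and Pax7, the pancreas gene Pax4 and the B-cell gene Pax5 had no promoter peak. Pax5 came closest: both libraries had a peak of 71 centred 545 bp from a TSS, just outside the window, in a hotspot that reached into it.

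The remaining groups act in brain, neural tube and pancreas. Nkx6-1, a gene of pancreatic beta cells and motor neurons, had 68 in replicate 1 and 60 in replicate 2 (mean 64.0 ± 5.66 SD, n = 2), centred 415 bp before the 5′ end. Nkx2-2, also of the pancreas and ventral neural tube, had 27 in replicate 2 only, and Nkx2-1, of thyroid, lung and forebrain, had none. Otx1, a forebrain gene, had 60 in replicate 1 and 55 in replicate 2 (mean 57.5 ± 3.54 SD, n = 2). Its relative Otx2 had 40 in replicate 1 only, and the cortical genes Emx1 and Emx2 had none. Gsx1, of the ventral forebrain, had 53 and 57 in replicates 1 and 2 (mean 55.0 ± 2.83 SD, n = 2), at identical coordinates centred 35 bp after the 5′ end. Gbx2, of the border between midbrain and hindbrain, had 42 in replicate 1 and 47 in replicate 2 (mean 44.5 ± 3.54 SD, n = 2). En1, En2 and Gsx2 had none.

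Across the 20 members, the highest promoter peaks overlapped between libraries in 14 and had the same coordinates in 9. In 6 members, Six5, Pax6, Lhx9, Lhx8, Prrx2 and Alx1, the libraries' highest peaks did not overlap. In 5 of these, Six5 being the exception, both libraries still shared a promoter peak at 1 or more places. Replicate 1 had the higher value in 16 and replicate 2 in 4. The median over all protein-coding genes with a peak in both was also higher in replicate 1, with 89.0 against 85.0. The overlaps of highest peaks were not counted over all protein-coding genes, so these counts do not show a trait particular to the members. With a window of 250 bp, Six5 and Nkx6-1 kept a promoter peak in replicate 2 only and Lhx2 in replicate 1 only. For the 9 members listed in 1 library only, the values ran between 21 and 45 with a median of 28. Among the 20 in both, the lowest value was 34 in replicate 1 and 26 in replicate 2. The ranges therefore meet, and a value near 30 was listed in both libraries for some members and in 1 for others.

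Sharing between the libraries was also counted over all promoter peaks of the members. In replicate 1, 62.2% of the members' 37 promoter peaks overlapped a peak of replicate 2, against 81.3% of all promoter peaks, and in replicate 2 it was 57.1% of 42, against 84.0%. The median value of these peaks was 40.0 in replicate 1, against 57.0 for all promoter peaks, and 32.0 in replicate 2, against 55.0. Peaks were counted singly, so a locus with several weighs more. Pax1 gave 4 of the 37, none of them shared. Lhx8, whose run of low peaks is described below, gave 8 of the 42. Shares without these loci were not counted. Whether the lower values account for the lower sharing was not tested.

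The position of the promoter peaks differed too. With only the 5′ end of each gene counted, 13 of 47 members, or 27.7%, had a peak in both libraries, against 57.6% of all protein-coding genes and 86.1% of the CpG-rich ones. Of the 20 members, 7 (Lhx2, Dlx1, Pax6, Alx1, Otx1, Lhx1 and Pax9), or 35.0%, had their peaks in both libraries only at internal TSSs, against 9.61% of the 13981 protein-coding genes with one in both. The medians of annotated TSSs per gene were 3.0 for members and 3.0 for all protein-coding genes. A TSS of another gene lay within 500 bp of a TSS of 11 members, 5 of them with a peak in both libraries, and reads do not say which of the overlapping genes a peak belongs to.

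**Figure D3:**
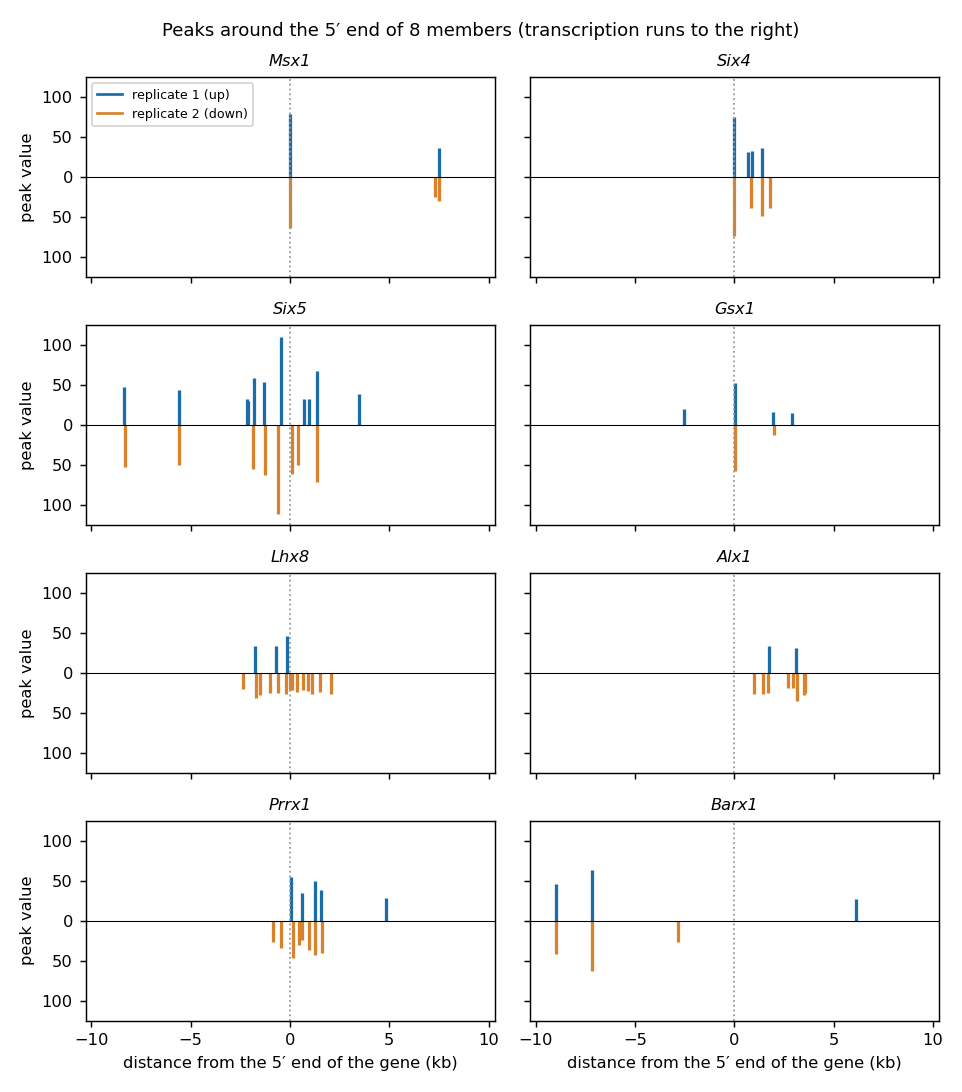
Peaks within 10 kb of the 5′ end of 8 members, with replicate 1 drawn upward and replicate 2 downward; height is the authors' peak value and the x axis is distance in kb. Msx1, Six4 and Gsx1 have a mirrored peak at the start, Six5 has offset peaks of 110 and 111, Lhx8 and Alx1 have runs of low peaks in replicate 2, and Barx1 has mirrored peaks only away from its start.

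In hotspot cover the members were narrower. Hotspots covered a median of 10.2% of the best 1 kb promoter window over all 47 members, against 46.7% over all protein-coding genes. Over genes with a promoter peak in both libraries the median cover was 36.5% for members and 73.0% for all protein-coding genes, and the median width of the promoter hotspot was 366 bp for members and 716 bp for all. The widest member hotspots were those of Lhx9, with 1314 bp in replicate 1 and 505 bp in replicate 2. Prrx1 followed with 885 and 702 bp in replicates 1 and 2, Six5 with 653 and 603 bp, Six4 with 629 and 530 bp, and Lhx8 with 298 and 761 bp. Lhx9 and Prrx1, the widest, are the only members with a peak in both libraries that are not CpG-rich. At Lhx8 the widths differed between libraries in the opposite sense to its highest peak values.

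The CpG content of members with and without a promoter peak overlapped. The median CpG ratio was 0.78 for the 20 members with a promoter peak in both libraries and 0.73 for the other 27. In a wider window of 4 kb around the 5′ end, the median number of CpGs was 165 for the 20 and 163 for the 27, against 86 for all protein-coding genes and 124 for the CpG-rich ones. The members' median distance to the nearest protein-coding 5′ end was 74.7 kb, against 22.2 kb for all protein-coding genes, 22.7 kb for the CpG-rich ones and 6.51 kb for the Hox genes in their clusters. Single members were closer, with 0.882 kb for Six6 and 4.64 kb for Prrx2.

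**Figure D4:**
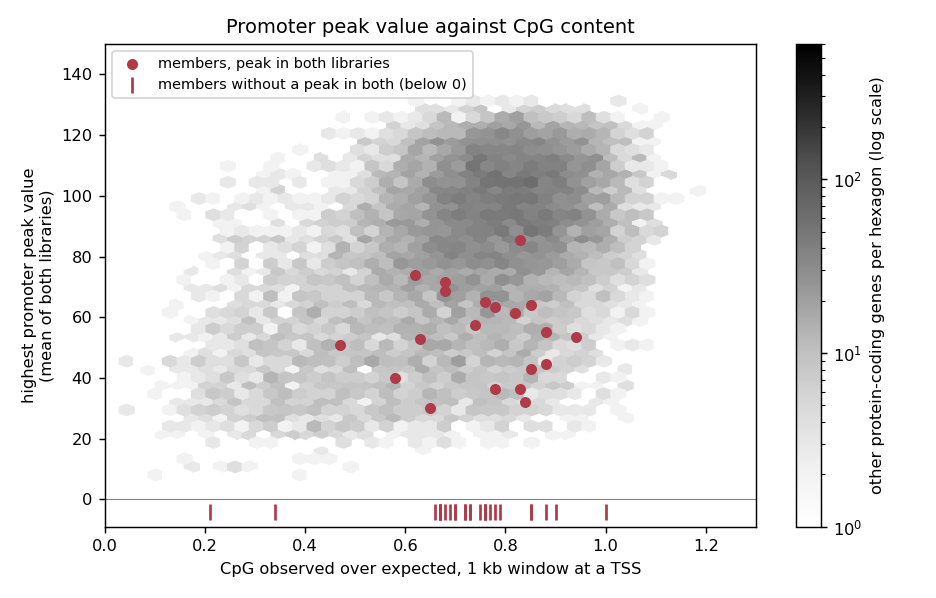
Mean of the highest promoter peak values of both libraries against the CpG ratio, with the 20 members that have a peak in both as red points and the 27 others as red ticks below 0; grey hexagons count the other protein-coding genes on a log scale. The red points lie between 30 and 85.5, mostly below the dense grey area at the same CpG ratio, and the ticks overlap the points in CpG ratio apart from Pax4 and Pax8 at the left and En2 at the right.

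Among the 18 members that lacked a promoter peak in both replicates, 16 were CpG-rich, the others being Pax4 and Pax8. The nearest peak to their 5′ end lay at a median of 6414.5 bp, as the mean of both libraries, with a range of 1174 to 26863 bp. In 10 of 18 it lay over 5 kb away and in 5 over 10 kb. The same distance was not taken for other protein-coding genes without a promoter peak, so no background stands beside it. It also leaves out internal TSSs. Pax5 and Lhx4 count as over 5 kb, yet Pax5 had a peak 545 bp from another of its TSSs in both libraries. Lhx4 had one at 836 bp in replicate 1 and 816 bp in replicate 2. Lhx6, a gene of cortical interneurons, was the farthest, with 22763 bp in replicate 1 and 30963 bp in replicate 2. Pax3 had 18817 and 18757 bp in replicates 1 and 2, and Pax4 had 11398 and 11378 bp. Pax7 had 10183 bp in replicate 1, on the upstream side, and 11717 bp in replicate 2, inside the gene, so its nearest peaks were different ones. Gsx2 had 4170 bp in replicate 1 and 28370 bp in replicate 2. Its neighbour Pdgfra, a fibroblast receptor gene, had promoter values of 75 in replicate 1 and 67 in replicate 2.

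Away from promoters the members' counts were near those of all protein-coding genes and below those of CpG-rich ones. Peaks in the gene body, over 500 bp from every TSS, were present in both libraries in 25 of 47 members, or 53.2%, against 51.9% of all protein-coding genes, which is near the background. Among CpG-rich genes it was 51.2% of members, against 67.2% of all CpG-rich protein-coding genes. The median was 1.0 peak per gene for members, 1.0 for all and 2.0 for all CpG-rich genes. Per 10 kb of gene it was 0.404 for members and 0.367 for all, and among CpG-rich genes 0.351 for members and 0.614 for all. The genes differ in length, with a median of 8.13 kb for members, 17.4 kb for all and 27.3 kb for all CpG-rich genes. Whether length accounts for the differences in counts was not tested. Lhx9 had 8 gene body peaks in replicate 1 and 9 in replicate 2, Pax5 had 8 and 7, Prrx1 had 7 and 8, Pax3 had 7 and 5, and Pax8 had 4 and 5. These 5 include 3 paired box genes without a promoter peak. All 5 are longer than the members' median, from 23.4 kb for Lhx9 to 185.7 kb for Pax5. Per 10 kb of gene, Lhx9 had 3.63, Prrx1 1.09, Pax8 0.818, Pax3 0.626 and Pax5 0.404, the last equal to the members' median.

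Peaks over 1 kb from every TSS and within 50 kb of the gene numbered a median of 6.5 for members and 7.0 for all protein-coding genes. Among CpG-rich genes the median was 6.0 for members and 9.0 for all. The window takes in the gene itself and so is wider for longer genes. Median length was 8.08 kb for CpG-rich members and 27.3 kb for all CpG-rich genes. Prrx2 had 14 in replicate 1 and 13 in replicate 2, Six2 had 14 and 11, Alx4 had 14 and 10, Pax3 had 13 and 10, and Pax2 had 11 and 11. Pax3 and Pax2 thus had many distal peaks and no promoter peak. Both are long, at 95.9 kb for Pax3 and 81.8 kb for Pax2, so their windows are wider than those of most members. The count for Pax3 includes its gene body peaks. At the low end, Pax6, Nkx2-1 and Otx1 had 1 in each library, and Pax9 had 0 in replicate 1 and 1 in replicate 2. The median was 6.0 for members with a promoter peak in both libraries and 7.5 for the other 27 members. It was 3.0 for all 7957 protein-coding genes without one in both, but these are unlike the members in CpG content. Of the 27 members 25 were CpG-rich, against 744 of the 7957 genes, and the 744 were not counted separately. The neighbours Dlx1 and Dlx2, Dlx3 and Dlx4, and Dlx5 and Dlx6 share part of their windows and so their distal peaks.

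**Figure D5:**
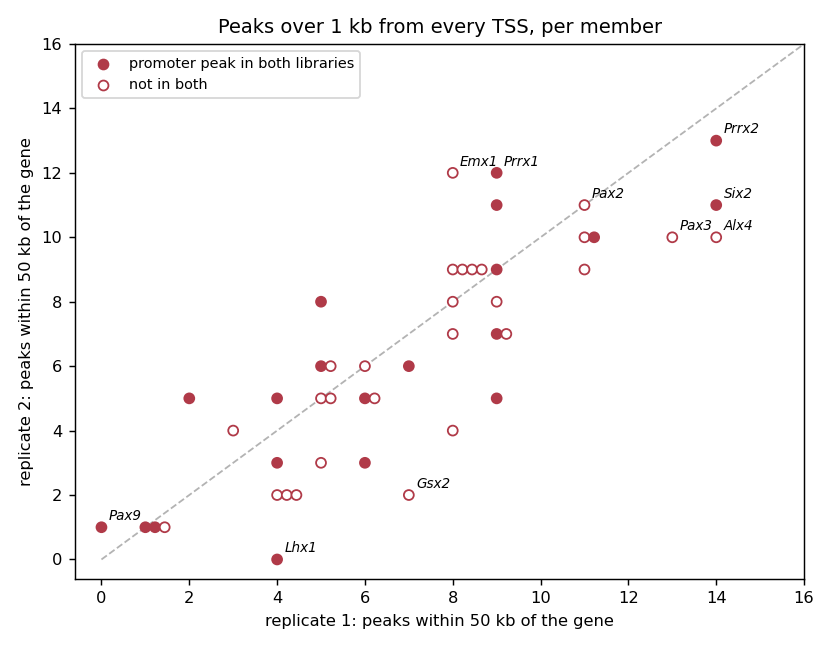
Number of peaks over 1 kb from every TSS and within 50 kb of each member in replicate 1 (x axis) and replicate 2 (y axis), with filled points for members that have a promoter peak in both libraries and open points for the others; members with equal counts are set slightly apart to the right. Filled and open points spread over the same range, and Prrx2, Six2, Alx4, Pax3 and Pax2 lie at the upper right.

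Flanking peaks of members were shared at rates near those of flanking peaks elsewhere. The 2 classes are not alike, since a member's flanking peak may lie inside a neighbouring gene. Flanking peaks elsewhere were counted only outside every protein-coding gene. In replicate 1, 72.5% of 240 overlapped a peak of replicate 2, against 68.4% of all flanking peaks, and in replicate 2 it was 82.2% of 214, against 79.4%. Their median value was 31.5 in replicate 1, against 32.0 for all flanking peaks, and 30 in replicate 2, against 30 for all. At promoters, by contrast, both the sharing and the values of members were below those of all peaks of that class. That sharing was counted over single peaks, to which loci with several peaks, such as Pax1 and Lhx8, gave more than others.

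Some distal sites had values above most distal peaks. The highest in both libraries lay in an intron of Prrx1, 31.8 kb after its 5′ end, with 94 in replicate 1 and 83 in replicate 2 (mean 88.5 ± 7.78 SD, n = 2). That is higher than the Prrx1 promoter in each library, but the nearest TSS, 1555 bp away, belongs to Gm20471, in whose intron the peak also lies. Six2 had 86 in replicate 1 and 74 in replicate 2 at 16.8 kb before its 5′ end (mean 80.0 ± 8.49 SD, n = 2), against 69 and 38 at its own promoter, although the nearest TSS, 11442 bp away, is that of AC166821.1. Barx1, with no promoter peak, had 70 in replicate 1 and 74 in replicate 2 at 31.3 kb after its 5′ end (mean 72.0 ± 2.83 SD, n = 2), where its own TSS is the nearest, and 63 in both libraries at 7.17 kb before it. An intron of Six5, 1337 bp after its 5′ end, had 68 and 71 in replicates 1 and 2 (mean 69.5 ± 2.12 SD, n = 2). Dlx3 had 70 and 62 in replicates 1 and 2 at 2.97 kb before its 5′ end (mean 66 ± 5.66 SD, n = 2). A higher peak at the far edge of its window, with 88 and 78, lies nearest to Itga3, an integrin gene, and the highest one near Lhx5, with 85 and 73, lies nearest to Sdsl. Of the other members without a promoter peak, Pax2 had 81 and 63 in replicates 1 and 2 at a site nearest to the TSS of AC131105.1, and Emx2 had 60 and 67 at 40.1 kb before its 5′ end, nearest to the TSS of Gm33756.

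A last set of sequences holds such sites, as called in replicate 1 and given on the plus strand of mm10, because 2 lie inside members and the other 2 are the highest flanking ones whose nearest TSS is the member's own. They are Prrx1 at chr1:163281836-163281985, Six5 at chr7:19095856-19096005, Barx1 at chr13:48694196-48694345 and Dlx3 at chr11:95117076-95117225. Capitals mark matches to the motifs searched, other than the E-box: CCAAT in Prrx1, the MEF2 consensus and CCAAT in Barx1, and the core of the CTCF motif in Dlx3. The Six5 peak held none of them.
Prrx1: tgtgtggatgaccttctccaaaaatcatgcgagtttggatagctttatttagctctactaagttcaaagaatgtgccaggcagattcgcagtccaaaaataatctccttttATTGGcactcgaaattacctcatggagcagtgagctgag
Six5: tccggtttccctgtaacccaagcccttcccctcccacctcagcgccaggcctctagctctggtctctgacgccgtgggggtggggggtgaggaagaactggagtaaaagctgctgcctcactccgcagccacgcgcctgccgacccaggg
Barx1: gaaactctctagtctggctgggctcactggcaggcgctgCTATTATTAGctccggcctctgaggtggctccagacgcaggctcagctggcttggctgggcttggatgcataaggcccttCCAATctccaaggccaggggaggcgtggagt
Dlx3: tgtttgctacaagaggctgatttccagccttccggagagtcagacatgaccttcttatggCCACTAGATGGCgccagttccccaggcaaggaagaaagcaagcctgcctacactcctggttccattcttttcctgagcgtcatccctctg

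Motif letters were counted on both strands in the highest promoter peak of each gene. CCAAT, the letters bound by the general factor NF-Y, was in 14 of 26 member peaks in replicate 1, or 53.8%, against 27.6% of such peaks over all protein-coding genes that had one, and in 15 of 23 in replicate 2, or 65.2%, against 27.8%. In fixed windows the share was not higher. Of the members' 47 RefSeq promoter entries (300 bp, GRCm38, 36 of 47 genes matched), 36.2% held CCAAT, against 37.8% of all entries. The share was 31.8% of entries for members with a promoter peak in both libraries and 40.0% for the other members. GGGCGG, the GC box of SP factors, was in 42.3% of member peaks in replicate 1, against 53.8% of all, and in 52.2% in replicate 2, against 54.3%. TAATTA, the core bound by many homeodomains, was in 0 of 26 member promoter peaks in replicate 1 and in 1 of 23 in replicate 2, against 0.524% and 0.623% of all.

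In the members' distal peaks, GGGCGG was in 10.8% in replicate 1 and 10.8% in replicate 2, against 5.18% and 5.49% of all distal peaks. AGATAA, a letter string bound by GATA factors, was in 5.9% and 6.83% in replicates 1 and 2, against 9.93% and 9.43% of all. TAATTA was in 1.97% and 3.24%, against 2.47% and 2.51%. The CTCF core, counted after the data were seen, was in 7.21% and 7.91%, against 4.05% and 4.94%. The members' distal peaks also held more CpGs, with a median of 3.0 in each library against 2.0 for all distal peaks. Letter matches are descriptions and do not show binding.

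Some loci held runs of low peaks in 1 library. Within 2.5 kb before and 10 kb after the 5′ end of Lhx8, replicate 1 had 3 peaks and replicate 2 had 15, of which 12 overlapped no peak of replicate 1, with values between 20 and 32 over the 15. At Alx1 replicate 1 had 2 peaks and replicate 2 had 8, with 6 unshared. At Pax1 the direction was opposite, with 6 peaks of 18 to 29 in replicate 1, 5 of them unshared, and 1 in replicate 2. These 3 loci were chosen after their values were seen.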

How the data were processed

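DNase-seq peaks and hotspots of newborn heart, deposited on mm10 per the labels, were read for both replicates; no source used here gives the hotspot caller or the read depth. The authors' deposited peak value is a signal, a whole number that is unscaled between libraries. The authors' deposited hotspots carry a −log10 q-value that runs between 1.3 and 6 and then jumps to a ceiling of 100. Peaks on other sequences, 190 in replicate 1 and 159 in replicate 2, were left out. Peaks were placed by their centre against GENCODE M21 (GRCm38 patch 6) with Python 3.11.15, numpy 2.4.6, pandas 2.3.3 and pysam 0.24.0, and figures were drawn with matplotlib 3.10.9. On simulated data, all 200 planted promoter peaks were recovered. Sequences were read from the mm10 genome of RefSeq, and RefSeq promoter entries were matched by symbol. With 1 group of 2 libraries there was no test; members were set beside all protein-coding genes by counts and medians. Members, lists and rules were chosen with earlier results of these data known. Values are given for the 12 members with the highest mean promoter value, every member listed in 1 library only, and the 5 leading members each for distal peaks, gene body peaks, hotspot width and distance to the nearest peak. Windows, thresholds, TSS sets, overlaps and replicates were varied.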

Additional observations from a re-analysis of the deposited data

How the results depend on the processing

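With windows, thresholds, list lengths, TSS sets or hotspots varied, the count of members with a peak in each replicate ran between 16 and 25 of 47, against 57.6% to 66% of all protein-coding genes; counting only the 5′ end gave 13, against 57.6%. Without members that share a promoter it was 15 of 36, and the counts within a single library were 23 and 26. With 1 replicate left out, the median highest value was taken over the members with a peak in the library kept. It was 47 over 23 members in replicate 2 and 50.5 over 26 in replicate 1, against 84.0 and 88.0 over all genes. Over the 20 members with a peak in both, it was 52.5 in replicate 2 and 57.5 in replicate 1. With the stronger 50% of peaks, the median number of gene body peaks was 0 for members and 0 for all, and that of distal peaks was 2.5 for members and 3.0 for all. Distal medians were 5.5 and 6.5 with lists of equal length, 3.0 and 3.0 within 20 kb, and 13.0 and 13.5 within 100 kb, for members and all genes in that order. Shared peaks made up 68.0% for members and 69.9% for all at an overlap of at least 75 bp, and 50.9% and 53.4% at 120 bp, against 74.4% and 75% at 1 bp. Hotspot cover was 0% for members and 35.3% for all at the 5′ end alone, 0% and 35.2% with hotspots at the ceiling only, and 8.0% to 19% for members with 1 replicate left out. The nearest peak to members without a promoter peak ran between 5334.5 and 6712 bp with 1 replicate left out. With peak centres within 250 bp, 5 named members lost their call: Six5 kept 61 in replicate 2 only, Lhx2 24 in replicate 1 only and Nkx6-1 24 in replicate 2 only, while Dlx6 and Alx4 kept none. With centres within 1000 bp, Six5 gave a mean of 110.5, Pax1 30.5, Dlx4 21 and Otx2 33. The causes of these shifts were not tested. No paired analysis was possible because there is 1 group. Without read counts, a member with no listed peak may still be open below the authors' threshold.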
